A study of Homo sapiens with 9 samples.

Results

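Of the NF-kB pathway, 10 feedback and chemokine genes, 6 for inhibitors and subunits and 4 for secreted ligands, were followed across arrays of Y79 cells, an established human retinoblastoma line. They were chosen by symbol. The inhibitors and feedback genes were NFKBIA, NFKBIE and TNFAIP3, the subunits NFKB1, NFKB2 and RELB, and the ligands CXCL2, CXCL8, CCL2 and IL6. Of 49293 tested probe sets on the Affymetrix PrimeView array, 17 carried exactly 1 of these symbols, and they covered all 10 genes of 18132 measured. The 9 arrays fell into 3 groups of 3. GNPs-HDM2 cells received gold nanoparticles conjugated with an HDM2 peptide (HDM2, human double minute 2, is the ubiquitin ligase that restrains p53), GNPs cells received the bare gold nanoparticles, and Control cells were untreated. The source names of the treated arrays spell the line Y97, and its tag reads Y79 on all arrays. The cells were grown in RPMI medium. The dose, the time of exposure, the peptide sequence and the culture behind each array are not given in the sources used here. The p-values therefore measure the spread between arrays, which may be technical.

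NF-kB factors are dimers of REL-family proteins that rest in the cytoplasm, bound by inhibitors of the IkB family. After a signal from a cytokine or pattern receptor, the IkB kinase complex marks the inhibitor for ubiquitination and destruction, and the freed dimer enters the nucleus. There it switches on chemokine and cytokine genes together with the genes of its own inhibitors, which closes a negative feedback loop. Expression of the inhibitor and of the ligands is therefore often read side by side.

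Promoter matches to NF-kB motifs are shown for the inhibitor gene that fell and for 3 ligand genes, since genes of both kinds carry the motif. RefSeq windows of 300 bases, 250 before and 50 after the start site, were found for 7 of the 10 genes, 10 windows in all on build GRCh38.p14. NFKBIE, RELB and CCL2 had no entry. Capitals mark matches on either strand to a kB decamer, GGRRNNYYCC, or to the nonamer GGAATTTCC (GGAAATTCC on the other strand). R stands for A or G, Y for C or T and N for any base. The decamer and nonamer matches overlap in NFKBIA and CXCL2.
NFKBIA, chr14:35404700-35404999, minus strand: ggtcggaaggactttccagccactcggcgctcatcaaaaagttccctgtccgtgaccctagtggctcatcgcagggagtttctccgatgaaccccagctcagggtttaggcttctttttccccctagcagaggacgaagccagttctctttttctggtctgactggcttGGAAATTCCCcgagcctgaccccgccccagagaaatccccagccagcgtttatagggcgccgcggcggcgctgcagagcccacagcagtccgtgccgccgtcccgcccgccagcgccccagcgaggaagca
CXCL2, chr4:74099146-74099445, minus strand: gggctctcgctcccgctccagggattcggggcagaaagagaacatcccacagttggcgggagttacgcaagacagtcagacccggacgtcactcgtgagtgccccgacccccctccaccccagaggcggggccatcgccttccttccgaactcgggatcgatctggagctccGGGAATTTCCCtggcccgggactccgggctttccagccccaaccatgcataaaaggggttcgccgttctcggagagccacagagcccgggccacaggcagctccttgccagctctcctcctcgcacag
CXCL8, chr4:73740319-73740618, plus strand: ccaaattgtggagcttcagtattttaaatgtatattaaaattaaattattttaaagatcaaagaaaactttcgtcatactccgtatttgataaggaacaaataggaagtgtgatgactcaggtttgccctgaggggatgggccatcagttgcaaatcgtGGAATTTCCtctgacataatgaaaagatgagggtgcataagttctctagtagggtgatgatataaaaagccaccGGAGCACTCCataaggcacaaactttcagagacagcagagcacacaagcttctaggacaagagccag
IL6, chr7:22726950-22727249, plus strand: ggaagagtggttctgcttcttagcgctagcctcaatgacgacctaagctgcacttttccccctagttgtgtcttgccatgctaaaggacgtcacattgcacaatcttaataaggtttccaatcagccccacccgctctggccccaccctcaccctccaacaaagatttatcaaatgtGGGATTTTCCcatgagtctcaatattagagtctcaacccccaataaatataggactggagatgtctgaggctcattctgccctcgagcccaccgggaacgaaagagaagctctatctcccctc
The decamer occurred in 8 of the 10 windows, against 14.0% of 35116 windows of all genes. The nonamer occurred in 4 of the 10 windows (NFKBIA, CXCL2, CXCL8 and NFKB1), against 0.461% of all windows. The genes were chosen as NF-kB pathway genes, and the 10 windows come from 7 of them, so these shares are no test of enrichment. The matches are a description of the letters and say nothing of binding in these cells. NFKBIA and CXCL2, which share the nonamer, lay at opposite ends of the measured changes.

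The values are log ratios to a probe-set baseline and give no abundance, so genes cannot be ranked by level. Their base was taken as 2, on which all folds below rest. The spacing between neighbouring stored numbers was taken to reflect the level of each probe set. By it 12974 probe sets were classed as dim, 22483 as middle and 7988 as bright. Photoreceptor and retinoblastoma markers, 14 measured genes with 32 probe sets, had 12 bright, 16 middle and 4 dim probe sets. Among them CRX, OTX2, RBP3 and AIPL1 were bright in all of their probe sets (2, 2, 1 and 5), while ARR3, GNAT2 and RCVRN were middle in their 1 probe set and GUCA1A, RXRG and THRB had dim and middle ones. Of 27 probe sets of monocyte and macrophage genes 17 were dim, 7 middle and 0 bright, and 3 were not classed. The leukocyte gene PTPRC was dim in 5 of its 6 and LYZ in 2 of 2. The middle ones were those of CD68 (2 of 2), CSF1R (2 of 3), AIF1 (2 of 5) and TYROBP (1 of 2). The GNPs-HDM2 arrays stood apart from the others over the whole table. Their median over dim probe sets was 0.54, 0.71 and 0.18, against -0.07 to -0.06 on GNPs arrays and 0.00 to 0.03 on Control arrays. Over bright probe sets it was -1.43, -1.97 and -0.33, against 0.09 to 0.11 on GNPs arrays and 0.00 to 0.05 on Control arrays. Hybridization controls, which are added in fixed amounts, lay at 1.58 to 2.13 on GNPs-HDM2 arrays, at -0.56 to 0.16 on GNPs arrays and at -0.40 to -0.27 on Control arrays. The median change of all genes against Control was 0.25. The part of these shifts in the members' changes was not tested beyond the comparisons with silent genes and level classes given beside them.

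The yardstick for a rise was a family of 474 genes that are not usually transcribed in retinal cells, namely olfactory and bitter taste receptors, keratin-associated proteins, beta-defensins and interferon alpha genes. They are called silent genes here. Of their probe sets 305 were dim, 178 middle and 8 bright. Their median was 0.89, 1.09 and 0.29 on the GNPs-HDM2 arrays, against -0.19, -0.11 and -0.12 on the GNPs arrays and 0.21, 0.07 and -0.01 on the Control arrays. Of the 474 silent genes 238 passed limma as higher in GNPs-HDM2 than in Control cells (50.2%) and 0 as lower, with a median log2 difference of 0.65 and a 5th to 95th percentile range of 0.15 to 1.26. Each member was therefore tested as deposited and again after the silent-gene median of each array was taken away, which compares it with the silent genes over arrays.

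With the conjugate, the inhibitor gene NFKBIA fell while CXCL2 and RELB rose beyond the silent genes. TNFAIP3, NFKB2, IL6 and CCL2 also rose, but their differences from the silent genes did not pass. Against Control, 6 of the 10 genes were higher and 1 was lower at a limma adjusted p under 0.05, where 33.1% of all genes were higher and 25.1% lower. The 3 GNPs-HDM2 values lay above the 3 Control values for 6 genes and below them for 1, where 36% and 23.9% of all genes did so. The member median was 0.64, against 0.25 for all genes and 0.65 for silent genes. After subtraction of the silent-gene median, 2 of the 10 were higher and 1 was lower, where 3.06% of all genes were higher and 36.2% lower, and the member median was -0.02.

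**Figure D1:**
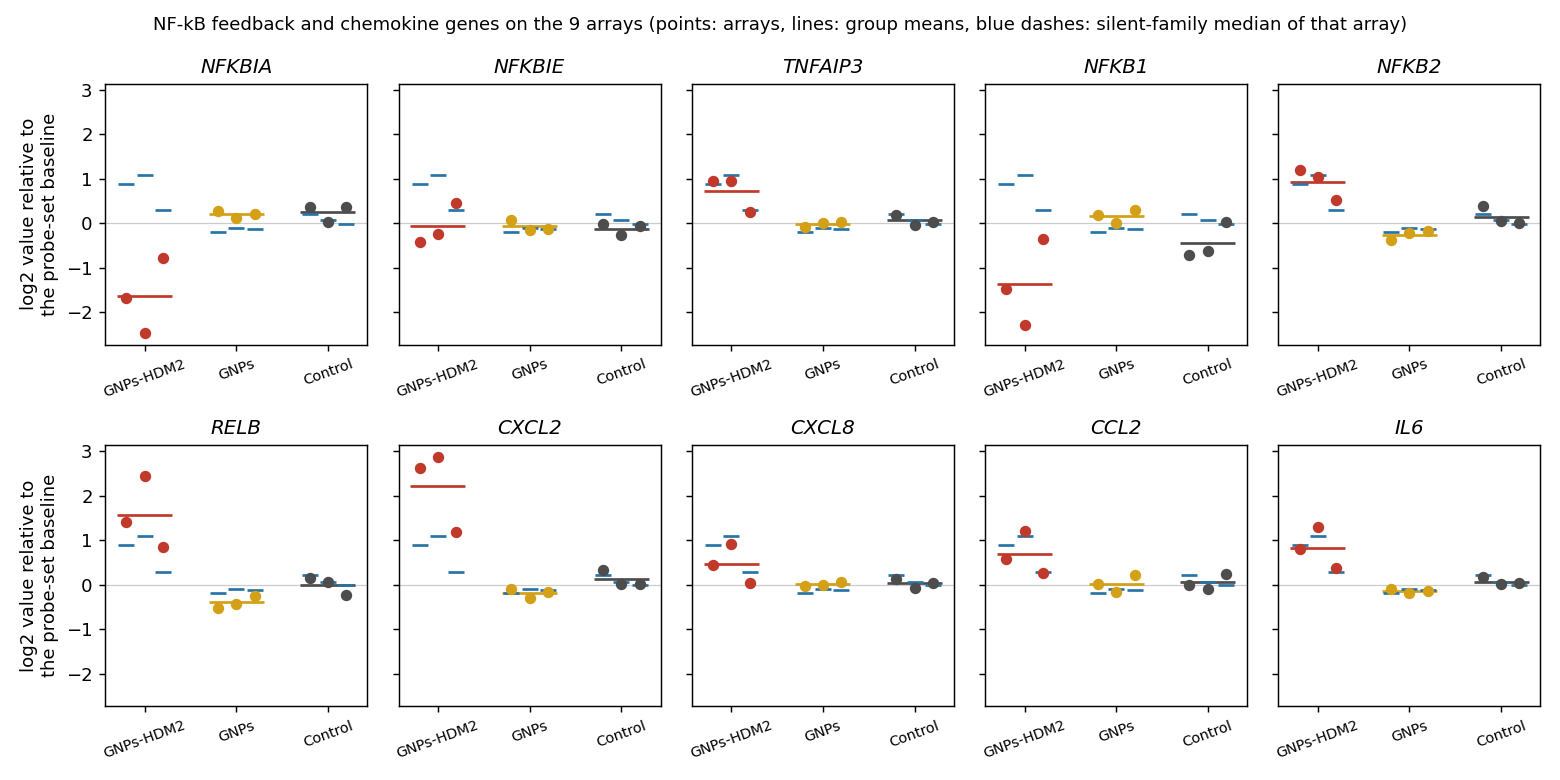
Log2 value relative to the probe-set baseline (vertical axis) of each of the 10 genes on the 3 GNPs-HDM2, 3 GNPs and 3 Control arrays. Points are arrays in the order of replicate number, lines are group means, and blue dashes give the median of the 474 silent genes on the same array. NFKBIA lies below the dashes on every GNPs-HDM2 array, CXCL2 and RELB lie above them, and TNFAIP3, NFKB2, CCL2 and IL6 follow them.

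NFKBIA codes for IkB-alpha, the inhibitor that NF-kB itself induces. Its gene values were -1.68, -2.46 and -0.77 on the GNPs-HDM2 arrays, against 0.27, 0.12 and 0.21 on the GNPs arrays and 0.37, 0.02 and 0.37 on the Control arrays. All 3 GNPs-HDM2 arrays lay below every other array, with replicate 3 nearest to them. The gene fell by 1.89 on the log2 scale against Control (SE 0.35, 3.71-fold lower; limma adjusted p = 0.0034) and by 1.83 against GNPs (SE 0.35; adjusted p = 0.00195). Its difference from the silent genes was -2.56 against Control (SE 0.52; limma adjusted p = 0.0104). All 3 probe sets fell against Control, with log2 differences of -1.74, -1.86 and -2.08, where 23.7% of all probe sets were called lower. The difference shrank to -1.16 when each array was centred within level classes or after quantile normalization, and the call against Control held in 19 of 19 alternatives (adjusted p from 1.74e-05 to 0.0185). The difference of NFKBIA from the silent genes was -1.31 under quantile normalization and -1.49 with level centring, and lost its call when the 2 groups were fitted alone (-2.56), with adjusted p over its 20 alternatives from 6.71e-06 to 0.0523.

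The level of NFKBIA bears on how far its fall stands out. Probe sets 11745878_x_at and 11757894_x_at were bright, and the median change of all bright probe sets against Control was -1.31. Of the bright probe sets, 33.1% and 21.6% fell further than these 2. Probe set 11744000_a_at was of middle level, where the median change was 0.19 and 6.71% of probe sets fell further than its -1.86. The probe sets of NFKBIA thus fell by like amounts, while the classes they belong to moved in opposite directions.

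NFKBIE codes for IkB-epsilon, another inhibitor under NF-kB control. It lay at -0.43, -0.24 and 0.44 on GNPs-HDM2 arrays, against 0.06, -0.15 and -0.14 on GNPs arrays and -0.02, -0.27 and -0.06 on Control arrays. The groups overlapped, with GNPs-HDM2 replicate 3 high and replicate 1 low. The difference was 0.05 against Control (SE 0.22; limma adjusted p = 0.857), and it turned to -0.21 without GNPs-HDM2 replicate 3 and to -0.03 without Control replicate 2. TNFAIP3 codes for A20, a ubiquitin-editing enzyme that damps the pathway upstream of the IkB kinases. It lay at 0.94, 0.96 and 0.24 on GNPs-HDM2 arrays, against -0.09, 0.00 and 0.02 on GNPs arrays and 0.19, -0.03 and 0.03 on Control arrays. It rose by 0.65 against Control (SE 0.20; limma adjusted p = 0.0225), and its difference from the silent genes was -0.01 (SE 0.12; adjusted p = 0.943). Without Control replicate 2, Control replicate 3, GNPs-HDM2 replicate 1 or GNPs-HDM2 replicate 2 the rise of TNFAIP3 was 0.60, 0.63, 0.54 and 0.53 and was not called. Level centring brought it to 0.19 and quantile normalization to 0.21, also not called. Fitting the 2 groups alone left the rise at 0.65 without a call (limma adjusted p = 0.0689). Array weights by group did the same (0.65, limma adjusted p = 0.0556). The call on TNFAIP3 against Control held in 10 of 18 alternatives (adjusted p from 1.53e-04 to 0.439).

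The subunit genes went different ways. RELB, the transactivating subunit of the noncanonical pathway, lay at 1.41, 2.44 and 0.84 on GNPs-HDM2 arrays, against -0.52, -0.43 and -0.25 on GNPs arrays and 0.14, 0.06 and -0.23 on Control arrays. Every GNPs-HDM2 array was above every other array. RELB rose by 1.57 against Control (SE 0.34, 2.97-fold; limma adjusted p = 0.00572) and by 1.96 against GNPs (SE 0.34, 3.90-fold; adjusted p = 0.00139). It exceeded the silent genes by 0.91 against Control (SE 0.23; limma adjusted p = 0.0174) and by 1.07 against GNPs (SE 0.23; adjusted p = 0.00555). Its change was above that of 465 of the 474 silent genes against Control, and 98.6% of middle probe sets changed less. The difference of RELB from the silent genes was not called without Control replicate 2 (0.95) or Control replicate 3 (0.84), nor when the 2 groups were fitted alone (0.91), and it was called in 17 of 20 alternatives (adjusted p from 0.00273 to 0.0655). Quantile normalization brought the rise of RELB to 1.03, still called.

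NFKB2 codes for p100, the partner of RELB and the precursor of p52. It lay at 1.19, 1.03 and 0.53 on GNPs-HDM2 arrays, against -0.38, -0.21 and -0.17 on GNPs arrays and 0.38, 0.04 and 0.00 on Control arrays. The GNPs-HDM2 arrays were above all others and the GNPs arrays below the Control arrays. NFKB2 rose by 0.77 against Control (SE 0.20; limma adjusted p = 0.0113), and its difference from the silent genes was 0.11 (SE 0.14; adjusted p = 0.569). Quantile normalization brought its rise to 0.19 and ended the call (adjusted p over its 19 alternatives from 3.30e-04 to 0.547). NFKB1 codes for p105, the precursor of the canonical subunit p50. It lay at -1.48, -2.29 and -0.36 on GNPs-HDM2 arrays, against 0.19, 0.00 and 0.30 on GNPs arrays and -0.71, -0.61 and 0.03 on Control arrays. GNPs-HDM2 replicate 3 lay among the Control arrays, whose own replicates 1 and 2 were low. The difference against Control was -0.94 (SE 0.41; limma adjusted p = 0.0699) and passed with the replicate number as a block (-0.94; adjusted p = 0.0257) and without GNPs-HDM2 replicate 3 (-1.45; adjusted p = 9.60e-04), while quantile normalization turned it to 0.20, and over its 19 alternatives the adjusted p ran from 9.60e-04 to 0.715. Against GNPs, NFKB1 fell by 1.54 (SE 0.41; limma adjusted p = 0.00823).

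CXCL2, a neutrophil-attracting chemokine, had the largest rise of the 10 genes, and its 2 probe sets rose by very different amounts. Probe set 11744127_at lay at 4.69, 4.46 and 2.19 on GNPs-HDM2 arrays, against -0.06, -0.36 and -0.10 on GNPs arrays and 0.32, 0.00 and 0.01 on Control arrays. It rose 12.7-fold against Control (log2 3.67, SE 0.53; limma adjusted p over all probe sets = 0.00166), where 24.9% of all probe sets were called higher, and 15.5-fold against GNPs (log2 3.96, SE 0.53; adjusted p = 7.06e-04), where 36.3% were called higher and 28.3% lower. It was of middle level, and its change exceeded that of all 178 middle probe sets of silent genes and of 99.98% of all middle probe sets. Probe set 11744128_x_at lay at 0.56, 1.28 and 0.15 on GNPs-HDM2 arrays, against -0.15, -0.25 and -0.23 on GNPs arrays and 0.35, 0.03 and 0.00 on Control arrays. It was dim, overlapped the Control arrays, and changed by 0.53 against Control (SE 0.27; limma adjusted p = 0.122), or -0.13 relative to the silent genes (adjusted p = 0.597). Against GNPs it lay above all 3 arrays and rose 1.83-fold (log2 0.87, SE 0.27; limma adjusted p = 0.0191), or -0.02 relative to the silent genes (adjusted p = 0.922).

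Both CXCL2 probe sets are annotated to the same accession, and the suffix of the second marks probes that may cross-hybridize. The difference between them was 4.13, 3.18 and 2.04 on GNPs-HDM2 arrays, against 0.08, -0.11 and 0.12 on GNPs arrays and -0.03, -0.03 and 0.01 on Control arrays. The GNPs-HDM2 values did not overlap the others (exact permutation test, 2-sided, p = 0.1 against Control, the smallest that 3 against 3 arrays allow). As the mean of both probe sets, CXCL2 rose by 2.10 against Control (SE 0.37, 4.29-fold; limma adjusted p = 0.00301) and exceeded the silent genes by 1.44 (SE 0.24; adjusted p = 0.00708). Quantile normalization brought the gene's rise to 1.20 and leaving out probe sets with an s or x suffix raised it to 3.67, and the call held in 19 of 19 alternatives. Its difference from the silent genes was called in 20 of 20 alternatives, the smallest of which was 1.05. Which of the 2 probe sets reports the CXCL2 transcript was not tested.

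The other ligand genes rose less or did not pass. CXCL8, the interleukin-8 chemokine, lay at 0.43, 0.90 and 0.04 on GNPs-HDM2 arrays, against -0.03, 0.00 and 0.05 on GNPs arrays and 0.14, -0.07 and 0.03 on Control arrays. GNPs-HDM2 replicate 3 lay among the other arrays. The difference was 0.43 against Control (SE 0.21; limma adjusted p = 0.0971), or 0.64 and called without GNPs-HDM2 replicate 3, and the 3 probe sets, all dim, stood at 0.45, 0.55 and 0.29. Level centring turned the CXCL8 difference to -0.04. Relative to the silent genes CXCL8 was -0.24 against Control (SE 0.13; limma adjusted p = 0.179) and lower against GNPs (-0.44, SE 0.13; adjusted p = 0.0206), a call lost in 6 of its 19 alternatives, among them those without GNPs-HDM2 replicate 1 (-0.36) and without GNPs replicate 1, 2 or 3 (-0.43, -0.46 and -0.43).

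CCL2, the monocyte-attracting chemokine MCP-1, lay at 0.58, 1.21 and 0.27 on GNPs-HDM2 arrays, against 0.00, -0.18 and 0.21 on GNPs arrays and 0.00, -0.09 and 0.25 on Control arrays. The groups were apart only by the small gap between GNPs-HDM2 replicate 3 and Control replicate 3. It rose by 0.63 against Control (SE 0.24; limma adjusted p = 0.0438), and its difference from the silent genes was -0.03 (SE 0.19; adjusted p = 0.911). The call on CCL2 held in 4 of 18 alternatives (adjusted p from 0.00415 to 0.557). The CCL2 call was lost with the replicate number as a block (0.63; adjusted p = 0.0639) and on leaving out any 1 array other than GNPs-HDM2 replicate 3, where the rise was 0.61, 0.56 and 0.73 without Control replicates 1, 2 and 3, 0.69 and 0.37 without GNPs-HDM2 replicates 1 and 2, and 0.63 without any 1 GNPs array.

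IL6, a cytokine of inflammation and a classical NF-kB target, lay at 0.80, 1.30 and 0.36 on GNPs-HDM2 arrays, against -0.11, -0.19 and -0.15 on GNPs arrays and 0.16, 0.01 and 0.03 on Control arrays. All GNPs-HDM2 arrays were above all others. IL6 rose by 0.76 against Control (SE 0.22; limma adjusted p = 0.0165) and by 0.97 against GNPs (SE 0.22; adjusted p = 0.00396), and its difference from the silent genes was 0.09 against Control (SE 0.13; adjusted p = 0.594). Its 2 probe sets stood at 1.15 (called) and 0.37 (not called) against Control, and their difference between the groups gave p = 0.3 (exact permutation test, 2-sided). The rise of IL6 was not called without Control replicate 2 (0.73) or Control replicate 3 (0.74), when the 2 groups were fitted alone (0.76) or after quantile normalization (0.29), and over 19 alternatives its adjusted p ran from 3.43e-04 to 0.267.

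**Figure D2:**
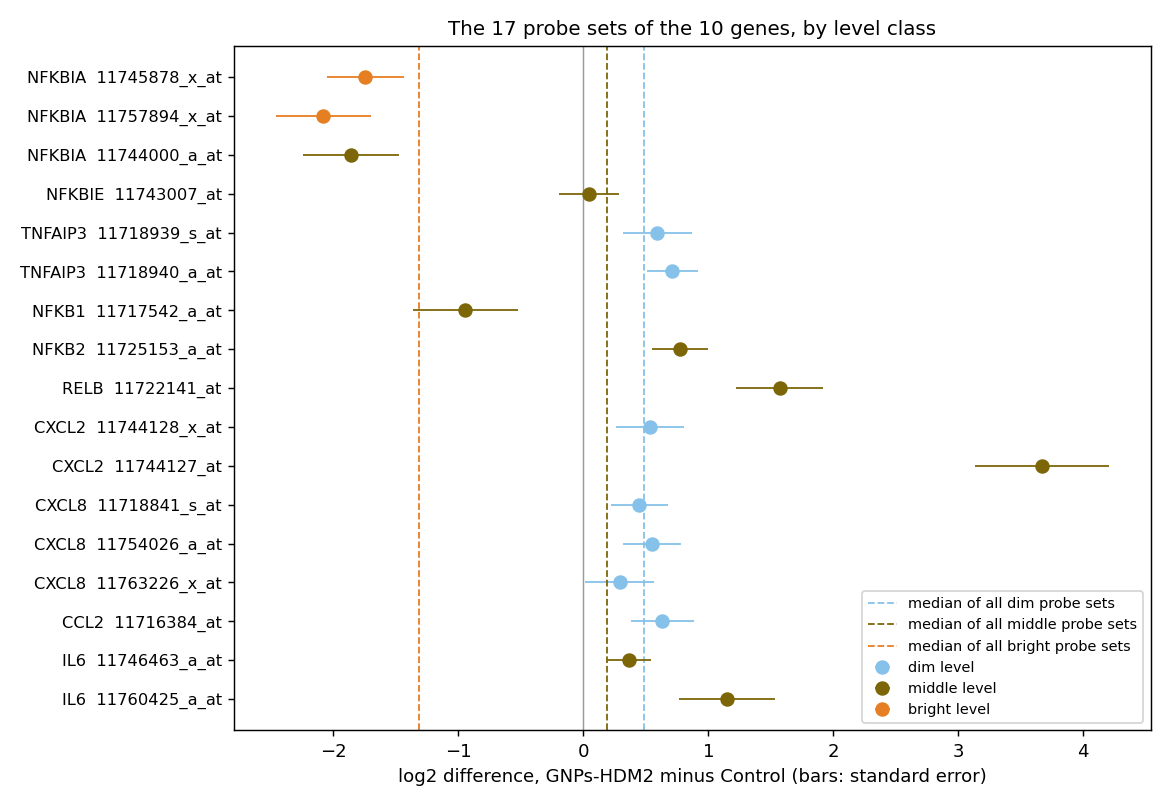
Log2 difference between GNPs-HDM2 and Control arrays (horizontal axis, bars are standard errors) of the 17 probe sets, coloured by level class, with dashed lines at the median change of all dim (0.49), middle (0.19) and bright (-1.31) probe sets. Dim probe sets of TNFAIP3, CXCL8, CCL2 and CXCL2 lie near the dim median, and 11744127_at of CXCL2 lies far to the right at 3.67.

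The mean of CXCL2, CXCL8, CCL2 and IL6 minus NFKBIA was 2.79, 4.03 and 1.24 on GNPs-HDM2 arrays, against -0.33, -0.28 and -0.22 on GNPs arrays and -0.22, -0.05 and -0.30 on Control arrays. GNPs-HDM2 replicate 3 had the smallest gap of its group, as it had the smallest shift of the silent genes. The level classes drew apart on the same arrays, with medians of 0.54, 0.71 and 0.18 over all dim probe sets and of -1.43, -1.97 and -0.33 over all bright ones. Of the ligands' 8 probe sets 5 were dim and 3 middle, while 2 of the 3 probe sets of NFKBIA were bright. The part of this level shift in the gap was not tested. Of the ligands, CXCL2 alone passed as higher than the silent genes against Control, as the mean of its 2 probe sets. Of these, 11744127_at exceeded the silent genes by 3.01, while 11744128_x_at stood at -0.13 relative to them. The ligand mean above includes both.

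Bare gold particles gave no call on these genes. Against Control, 0 of the 10 genes passed limma in either direction, where 0.0221% of all genes were called higher and 0% lower. Subtraction of the silent-gene median left these counts and shares the same. In either fit 0 of the 10 had an unadjusted limma p under 0.05, a threshold at which the share of all genes was not counted. NFKB1 differed most, at 0.60 (SE 0.41; limma adjusted p = 0.864), and the other genes ranged from -0.40 to 0.05. The 3 GNPs arrays lay below the 3 Control arrays for 4 genes, NFKB2, RELB, CXCL2 and IL6, where 21.5% of all genes did so, and above them for 0, where 12.4% did. The silent genes had a median of -0.25 in that comparison, with a 5th to 95th percentile range of -0.60 to 0.05. After quantile normalization NFKB1 was called higher (1.13) and NFKB2 (-0.87) and RELB (-0.96) lower, each of them not called in any of the other 18 alternatives.

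Against the bare particle, the conjugate gave 6 higher and 2 lower members, where 43.2% of all genes were called higher and 29.1% lower. This comparison shares its GNPs-HDM2 arrays with the one against Control. The groups did not overlap for the same 8 genes, 6 above and 2 below, where 45.9% and 30.5% of all genes were apart. NFKB1 joined NFKBIA among the lower genes, and TNFAIP3 (0.74), NFKB2 (1.17), RELB (1.96), CXCL2 (2.41), CCL2 (0.67) and IL6 (0.97) were higher. Silent genes had a median of 0.92 (386 of 474 called higher, 81.4%). Relative to them 2 members were higher, CXCL2 by 1.52 (SE 0.24; limma adjusted p = 0.0023) and RELB, and 3 were lower, NFKBIA (-2.73), NFKB1 (-2.44) and CXCL8, where 3.93% of all genes were higher and 50.6% lower. The rise of CCL2 was not called without GNPs-HDM2 replicate 2 (0.41), GNPs replicate 1 (0.67) or GNPs replicate 2 (0.58), and it was called in 10 of 18 alternatives (adjusted p from 0.00282 to 0.526). It was lost also with median centring (0.50), when the 2 groups were fitted alone (0.67) and with array weights by group (0.67). Level centring brought TNFAIP3 to 0.20 and CCL2 to 0.13, and quantile normalization brought them to 0.27 and 0.25, none of these called. That left 4 members higher under either setting, for which the share of all genes called was not counted. The call on TNFAIP3 held in the other 16 of its 18 alternatives.

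**Figure D3:**
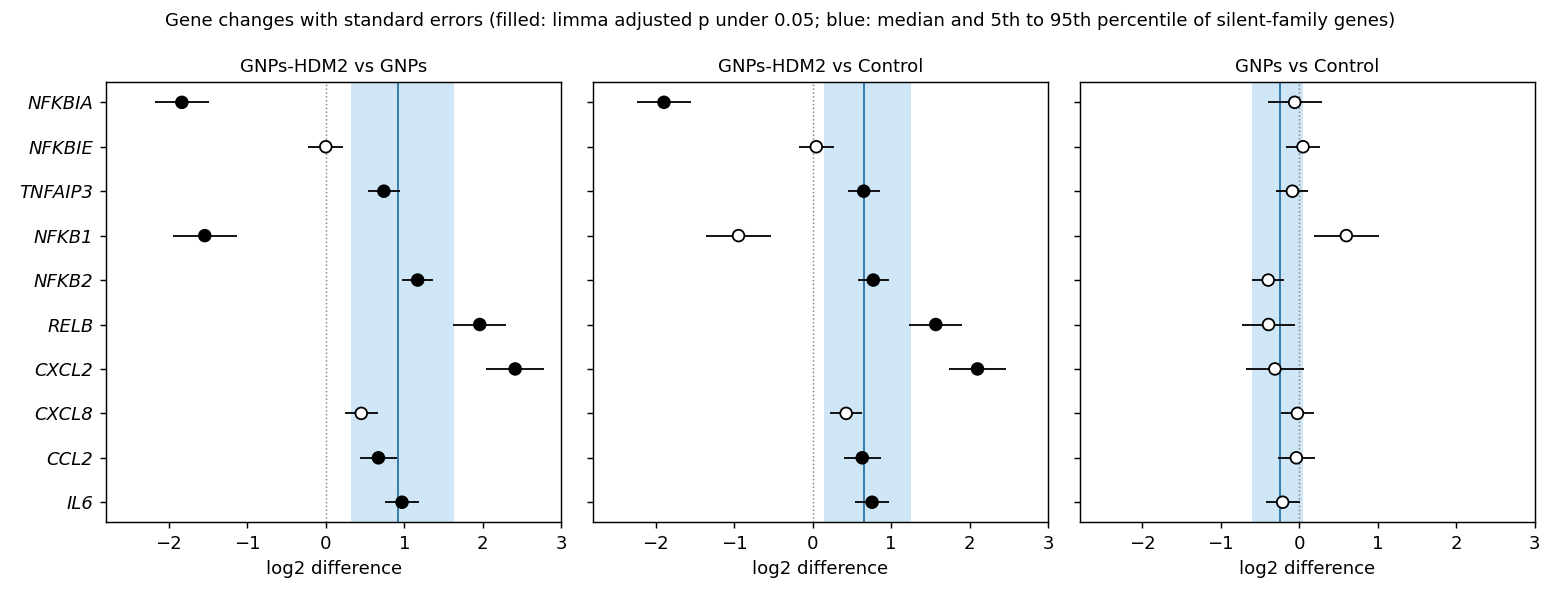
Log2 differences of the 10 genes with standard errors in the 3 comparisons, filled where the limma adjusted p is under 0.05, over the median (blue line) and the 5th to 95th percentile range (blue band) of the 474 silent genes. In both comparisons of GNPs-HDM2 arrays CXCL2 and RELB lie right of the band. The whole band is above 0 there, so NFKBIE, almost unchanged, lies left of it, as do NFKBIA and NFKB1. In GNPs against Control all points are open.

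Most of the other NF-kB target genes rose, few of them beyond the silent genes. Of 23 measured other NF-kB targets 15 rose with the conjugate against Control and 0 fell, with a median of 0.76, where 33.1% of all genes rose and 25.1% fell. Of the 45 probe sets of this list 20 were dim, 20 middle and 0 bright, and 5 were not classed. In that comparison the median change was 0.49 over all dim, 0.19 over all middle and -1.31 over all bright probe sets. The part of the level in these counts was not tested. The chemokine gene CXCL3 rose by 0.95 (SE 0.17), the lymphotoxin gene LTB by 1.24 (SE 0.24) and the macrophage growth factor gene CSF1 by 0.74 (SE 0.16). Their limma adjusted p were 0.00295, 0.00428 and 0.00613. Relative to the silent genes, where 3.06% of all genes were higher and 36.2% lower, the list median was 0.10, LTB was called higher (0.58) and IL1A lower (-0.57), and CXCL3 stood at 0.29 and CSF1 at 0.08 with no call. Monocyte and macrophage markers, a list of 10, had a median of 0.69 with 6 higher and 0 lower. Fibroblast and endothelial markers had 5 of 10 higher and 0 lower, with a median of 0.57, and photoreceptor and retinoblastoma markers had 0 of 14 higher and 6 lower, with a median of -0.72. On the GNPs-HDM2 arrays the monocyte and macrophage markers had medians of 0.55, 0.82 and 0.29. Their medians were -0.16 to -0.08 on GNPs arrays and -0.04 to 0.06 on Control arrays. After the silent-gene median was taken away, limma called 0 of these 10 markers in either direction. Of the fibroblast and endothelial markers 1 was then called higher and 0 lower. Of the photoreceptor and retinoblastoma markers 0 were then called higher and 7 lower.

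Genes of the kinases and of the ligase moved in both directions. Of 10 genes for kinases of the pathway and the ligase that ubiquitinates IkB, 5 fell and 3 rose with the conjugate against Control. The list median was -0.70, and of all genes 25.1% fell and 33.1% rose. The kinase gene TBK1 fell by 1.43 (SE 0.16), while the cullin gene CUL1 fell by 2.11 (SE 0.42) and FBXW11, a substrate receptor of that ligase, fell by 1.97 (SE 0.41). BTRC (-0.65) and SKP1 (-0.75), of the same ligase, also fell. IKBKG, the scaffold subunit NEMO, rose by 0.94 (SE 0.19), MAP3K14, the noncanonical kinase NIK, by 0.59 and the kinase gene IKBKE by 1.15. Relative to the silent genes these 5 falls were still called, where 36.2% of all genes were, and none of the 3 rises was, at 0.27 for IKBKG, -0.08 for MAP3K14 and 0.48 for IKBKE. IKBKB, the catalytic kinase of the canonical pathway, stood at 0.03 and CHUK at -1.13, neither of them called. Of the 39 probe sets of this list 6 were bright, 21 middle and 4 dim, and 8 were not classed. In the same comparison the median change was -1.31 over all bright probe sets and 0.19 over all middle ones. The part of the level in the falls of pathway genes was not tested.

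Of 10 other subunit and inhibitor genes 2 rose and 2 fell, no larger shares than the 33.1% and 25.1% of all genes. REL fell by 1.78 (SE 0.17) and RELA, the main transactivating subunit, fell by 0.49 (SE 0.17). Both were lower than the silent genes (-2.44 and -1.16), where 36.2% of all genes were lower and 3.06% higher. BCL3, an atypical IkB protein, rose by 0.88 and TNIP2, a partner of A20, by 0.41, neither beyond the silent genes (0.22 and -0.25). Of 16 measured receptor and adaptor genes 5 rose and 4 fell, near the shares of all genes (33.1% and 25.1%). The kinase gene MAP3K7 (TAK1) fell by 1.72, the adaptor TRAF3, which restrains NIK, fell by 1.39 and the ubiquitin ligase BIRC2 fell by 0.74. All 3 were lower than the silent genes, as were 36.2% of all genes. The receptors LTBR (0.90) and TNFRSF1A (0.88) and the adaptor TRADD (0.74) rose, with differences of 0.24, 0.21 and 0.08 from the silent genes, none called. Of the 5 receptor genes for the ligands 4 rose, where 33.1% of all genes did. CCR2 rose by 1.07, CXCR1 by 0.80, IL6R by 0.55 and CXCR2 by 0.43, while IL6ST stood at -0.11. CCR2 alone was called higher than the silent genes (0.41), where 3.06% of all genes were, and IL6ST was called lower (-0.77).

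**Figure D4:**
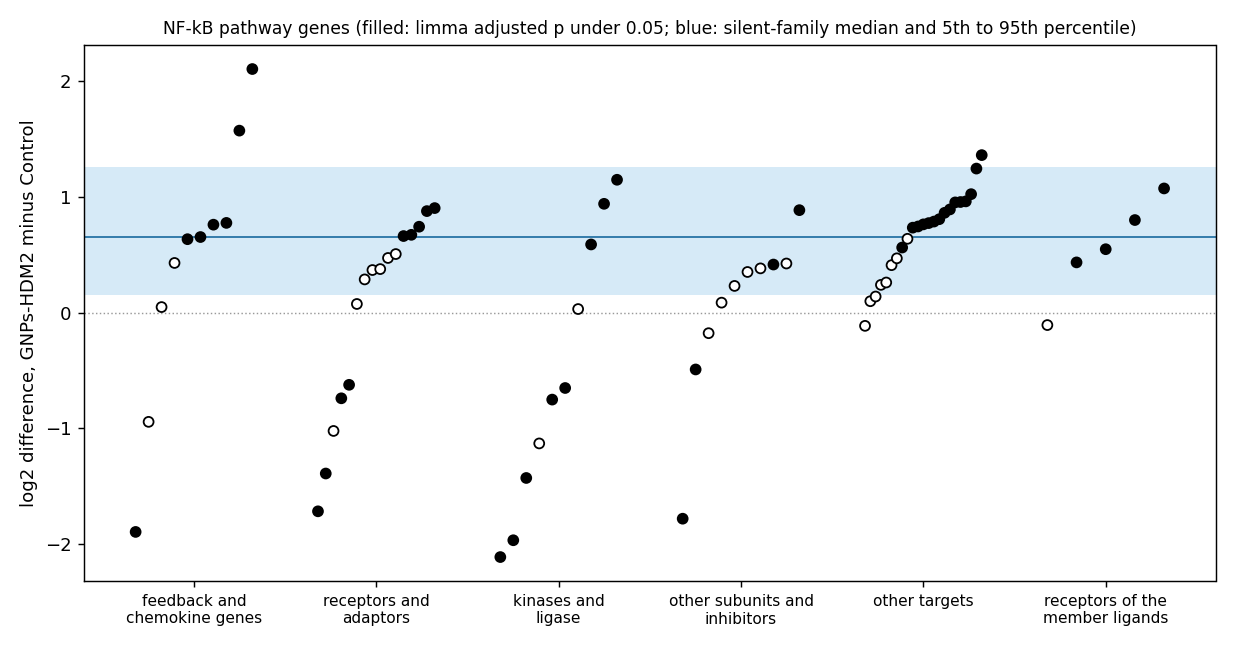
Log2 difference between GNPs-HDM2 and Control arrays (vertical axis) of the 10 genes and of 64 other pathway genes by list, each point a gene, filled where the limma adjusted p is under 0.05, over the silent-gene median and 5th to 95th percentile range (blue). Most rising genes lie inside the blue band. The band runs from 0.15 to 1.26, so every gene that fell lies below it, with CUL1, FBXW11, REL and MAP3K7 among them.

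The genes most like NFKBIA over the 9 arrays were NUP153, of the nuclear pore (Pearson r = 0.998), the histone demethylase gene KDM2B (r = 0.998) and AKIRIN1 (r = 0.997). Those most like CXCL2 were MAB21L4, ZNF566-AS1 and PPFIA2 (r = 0.998 each). These correlations are descriptions over 9 arrays that share 3 groups, and the order within the GNPs-HDM2 arrays, with replicate 2 farthest from the other groups and replicate 3 nearest, is common to all 6 genes.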

How the data were processed

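Affymetrix PrimeView arrays of Y79 cells were measured, 3 for each of GNPs-HDM2, GNPs and Control. The deposited table holds log2 values relative to a per-probe-set baseline, as read from the values, since 59.7% of probe sets hold an exact 0 on at least 1 array. The log base, baseline and summarizing tool are not given in the sources used here. The table has 49395 probe sets, of which 102 array controls were not used. Probe sets with several symbols (1832) or none (2473) entered the probe-set fit only. A gene value is the average over probe sets with that symbol only.

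All 9 arrays entered one fit (limma 3.58.1 under R 4.3.3, 2-sided moderated tests; data.table version 1.17.8), with Benjamini-Hochberg adjustment over all 18132 genes or 49293 probe sets and a threshold of 0.05. The fit takes the spread as equal, while the median SD within a group was 0.396 for GNPs-HDM2, 0.0892 for GNPs and 0.151 for Control arrays. It was repeated after the median of the 474 silent genes was subtracted from each array. Level classes were 2 to 4 (dim), 4 to 8 (middle) and 8 to 16 (bright). They came from the float step size of the values, at a posterior of at least 0.9. Whether these classes match the abundance of the transcripts was not tested. The number of arrays limits the precision.

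The members, the lists, the silent family and the motifs were chosen with earlier results of these data known. Named genes were the 10 members, up to 3 higher and 3 lower genes of each pathway list by adjusted p, and the 3 genes most correlated with NFKBIA and with CXCL2. BTRC, SKP1, IKBKB, CHUK, CXCR2, IL1A and IL6ST were added after their values were seen. So were the marker genes CRX, OTX2, RBP3, AIPL1, ARR3, GNAT2, RCVRN, GUCA1A, RXRG, THRB, PTPRC, LYZ, CD68, CSF1R, AIF1 and TYROBP. Same-numbered GNPs-HDM2 and Control arrays deviated together (r = 0.16, 0.11 and 0.29 over genes). Differently numbered pairs ran from -0.25 to 0.21, the highest being GNPs-HDM2 replicate 2 with Control replicate 1. The numbers therefore do not settle a pairing of arrays, and the replicate block is given beside the results it changed. For GNPs with Control (-0.04, 0.00 and 0.07) same-numbered arrays did not all deviate together. Nor did they for GNPs-HDM2 with GNPs (-0.06, 0.10 and 0.01).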

Additional observations from a re-analysis of the deposited data

How the results depend on the processing

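The alternatives were quantile normalization, centring each array on its median or within level classes, the median of a gene's probe sets, no probe sets with an s or x suffix, no dim probe sets, a fit of only the groups compared, eBayes with trend and robust options, array weights by group, the replicate number as a block, olfactory receptor genes alone as silent, and leaving out each array. Apart from leaving out arrays, 559 single-gene values kept direction and call, 24 lost and 9 gained a call, and 20 changed sign, none of these called in either setting. The shares of all genes called were counted in the main fit only. Member counts under an alternative, leaving out arrays included, therefore have no such share beside them and cannot be read against all genes.

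Quantile normalization called 2 members higher with the conjugate against Control, and for GNPs against Control 1 higher, 2 lower and 1 higher than the silent genes. It turned NFKB1 (0.20) and, relative to the silent genes, NFKBIE (0.22), TNFAIP3 (0.058), NFKB1 (0.049) and CCL2 (0.086) with the conjugate against Control. It also turned CXCL8 (0.056) and IL6 relative to the silent genes (-0.033) for GNPs against Control, and NFKBIE (0.15) for the conjugate against GNPs. Median centring turned NFKBIE to -0.12 with the conjugate against Control. Level centring turned NFKBIE (-0.13) and CXCL8 (-0.036) in that comparison, CXCL8 (0.049), CCL2 (0.036) and IL6 relative to the silent genes (-0.015) for GNPs against Control, and CXCL8 (-0.085) for the conjugate against GNPs. Without s or x probe sets TNFAIP3 relative to the silent genes was 0.042 with the conjugate against Control, and NFKBIA (0.0099) and CXCL8 (0.028) turned for GNPs against Control. Without dim probe sets 7 members were left, 2 were lower than the silent genes against Control, and relative to the silent genes CXCL2 was 0.052 for GNPs against Control and IL6 -0.092 for the conjugate against GNPs. The fit of only the GNPs-HDM2 and Control arrays called 3 members higher, 1 higher than the silent genes and 0 lower than them (limma; 19 alternatives kept NFKBIA as lower than them). With the replicate block 2 members were lower against Control and 2 lower than the silent genes, and apart from the calls on NFKB1 and CCL2 given above it changed no call of that comparison. The causes of these changes were not tested.

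Leaving out 1 array at a time gave 3 to 7 members higher with the conjugate against Control (3 without Control replicate 2 or 3, 4 without GNPs-HDM2 replicate 1 or 2, and 7 without GNPs-HDM2 replicate 3), 1 to 2 lower, 1 to 2 higher than the silent genes and 1 to 3 lower than them. Against GNPs it gave 5 to 7 higher, 2 lower, 2 to 3 higher and 2 to 4 lower than the silent genes, and for GNPs against Control 0 throughout by limma, as with all arrays. Signs turned for NFKBIE (-0.21 to 0.22) and, relative to the silent genes, TNFAIP3 (-0.059 to 0.032) and CCL2 (-0.13 to 0.11) with the conjugate against Control. They turned for NFKBIA (-0.18 to 0.0010), NFKBIE (-0.029 to 0.096), CXCL8 (-0.075 to 0.029), CCL2 (-0.14 to 0.060) and IL6 relative to the silent genes (-0.031 to 0.054) for GNPs against Control, and for NFKBIE (-0.26 to 0.18) for the conjugate against GNPs. Without GNPs-HDM2 replicate 3, NFKB1 (-2.35) and NFKBIE (-1.11) became lower than the silent genes against Control. With 3 arrays a group and a wide spread among the GNPs-HDM2 arrays, small differences such as those of NFKBIE and CXCL8 could not be resolved.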

Other observations

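Against the bare particle, 4 of 23 measured other NF-kB targets were higher than the silent genes with the conjugate, the chemokine genes CCL20 (0.96) and CCL5 (0.43), the lymphotoxin gene LTB (0.60) and the cytokine gene IL1B (0.48), by limma after subtraction of the silent-gene median, where 3.93% of all genes were higher and 50.6% lower. CXCL10 (-0.65), IL1A (-0.55) and BCL2A1 (-0.74) were lower. Of the 10 genes for pathway kinases and the IkB ligase, 7 were lower than the silent genes in that comparison and 0 were higher. The shares of all genes were the same 50.6% and 3.93%. CCL20, CCL5, IL1B, CXCL10, IL1A and BCL2A1 were singled out after their values were seen.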
